A study of Rattus norvegicus with 6 samples.

Results

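The genes described here encode adaptor proteins that bind activated Trk receptors and the first Ras and ERK pathway proteins that follow them. They are Shc1, Frs2, Grb2, Gab1, Sos1, Hras, Map2k1 and Mapk3. Every probe set whose only gene symbol in the array annotation was one of these 8 was included, in the signals of all 6 arrays. The rule found 10 probe sets for 6 of the 8 genes, out of 20826 single-symbol probe sets in the table. The 1 probe set carrying the symbol of Hras also carried a second symbol, and none carried that of Mapk3 in the annotation used, so both genes were not analysed here. RNA came from whole ovaries of 4-day-old female Sprague-Dawley rats, kept in organ culture for 48 h. The 3 control samples received no factor, and the 3 NT3 samples received 50 ng/ml of recombinant human neurotrophin 3. Each sample pooled 2 to 3 ovaries, and the labels call the replicates biological without saying whether they came from separate litters, so the p-values speak only of the spread among these 6 samples.

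NT3 is a neurotrophin that signals mainly through TrkC, a receptor tyrosine kinase. Once the receptor has phosphorylated itself, Shc1 and Frs2 bind to it and become phosphorylated in turn, and they recruit Grb2, which carries the exchange factor Sos1 to the membrane. Sos1 loads Ras proteins with GTP, Ras activates Raf kinases, and these activate the kinase encoded by Map2k1, MEK1, which phosphorylates ERK kinases such as that encoded by Mapk3. Gab1 is a docking protein that Grb2 brings in and that links the receptor to further enzymes. Most of these proteins are found in nearly every cell type and are switched by phosphorylation, which transcript arrays do not measure. The ovary at this age holds mainly primordial follicles, and the series title concerns their passage to the primary stage. The comparison asks whether transcripts of the signalling proteins differ after 48 h with NT3.

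The signals of 5 arrays were alike in the RNA quality measures, and control replicate 2 stood apart, with a beta-actin 3′ to 5′ signal ratio of 6.83 against 2.42 to 2.91 on the others. Without that array the beta-actin ratio was still lower in the controls, at 2.42 and 2.60, than in NT3, at 2.78 to 2.91. Median signals lay between 69.0 and 75.0, and the number of arrays limits the precision of every value. The 5 oocyte and 5 granulosa marker genes were all above the signal filter, with summed oocyte signals of 10709 to 11613 in control and 9023 to 11713 in NT3. Granulosa markers summed to 4047 to 4928 and 3998 to 4604, theca and steroid cell markers to 646 to 895 and 469 to 976, and endothelial markers to 1339 to 1667 and 1211 to 1628. Smooth muscle markers summed to 501 to 850.2 and 478 to 792, oviduct epithelium markers to 880.4 to 974 and 857 to 1236, and neuron and Schwann cell markers to 67.9 to 119 and 80.5 to 97.3. All of these ranges overlapped, but each sum is weighted to its strongest genes, and the leukocyte sums, given below, did not overlap. Myh11 of the smooth muscle list gave 69.5 to 77.3 in control and 45.4 to 62.2 in NT3. Cyp11a1 of the theca list gave 27.8 to 31.0 in control and 11.1 to 18.9 in NT3, also with no overlap. Of the oviduct markers, Cldn3 alone gave 64.6, 67.9 and 61.7 in control and 148, 143 and 86.2 in NT3, with no overlap and the lowest unadjusted limma p of all genes, 0.00372 (adjusted p 1). The genes Cyp17a1 and Cyp11a1 of the theca list and Sox10 and Tubb3 of the neural list were under the filter. In whole ovaries, fewer cells of a type and less RNA per cell cannot be told apart.

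Transcript signals of the 6 member genes with a single-symbol probe set differed little between NT3-treated and control ovaries, and none passed the test. Of the 6 genes, Sos1, Map2k1 and Frs2 had a higher and Grb2, Gab1 and Shc1 a lower mean log2 signal in NT3. The median log2 fold change over the 6 genes was -0.0050, against -0.0075 over all 10600 genes tested. By limma with Benjamini-Hochberg adjustment, 0 of the 6 genes and 0 of their 8 tested probe sets had an adjusted p under 0.05, as had 0 of all 18625 probe sets tested, or 0%. At an unadjusted limma p under 0.05 the member count was also 0, while over all probe sets it was 240, or 1.29%. In the fit blocked on replicate number it was 1 of the 6, Grb2, against 2.15% of all probe sets. All 6 intervals of the difference lay between 0.709-fold and 1.36-fold. Each of the 6 was inside 1.5-fold either way, a limit chosen after the values were seen, as were the intervals of 72.3% of all genes tested. The 6 genes had high mean log2 signals, at percentiles 85.9 to 92 of all probe sets, while tested genes reached down to percentile 40. Genes of like signal were not compared separately.

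**Figure D1:**
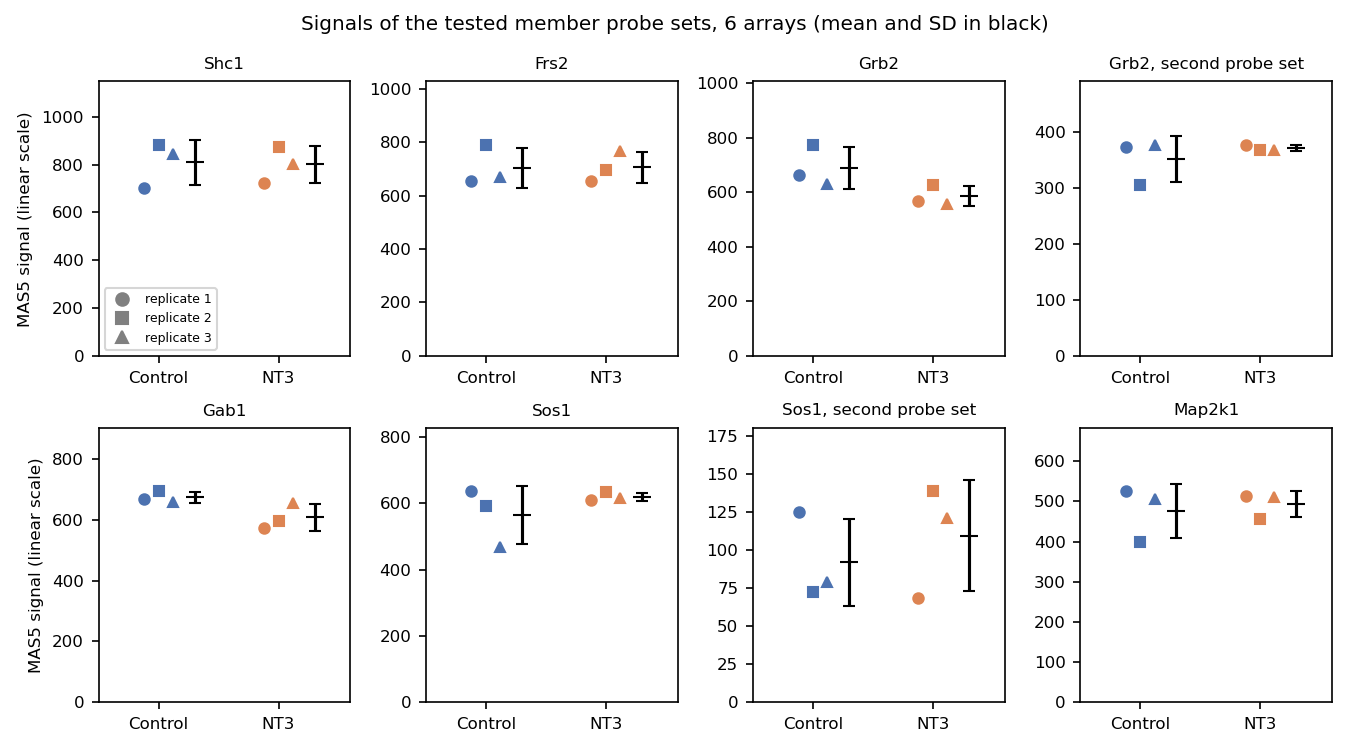
Signal of the 8 tested probe sets (y axes, MAS5 signal on a linear scale starting at 0) on the 3 control arrays (blue) and the 3 NT3 arrays (orange), with the replicate number by symbol and the mean and SD in black. The groups overlap in 6 panels, and in those of the stronger Grb2 probe set and Gab1 every NT3 array lies below every control array.

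Shc1 encodes an adaptor whose phosphotyrosine-binding domain docks on activated Trk receptors. Its signal was 704, 883 and 844 on control arrays 1, 2 and 3, followed by 722, 875 and 804 on NT3 arrays 1, 2 and 3. Replicates 1 were the lowest and replicates 2 the highest in both groups, and the groups overlapped. Here and below, an error beside a mean signal is the SD of 3 arrays and an error beside a log2 fold change is its SE. The means were 810 ± 94.2 in control and 800.4 ± 76.8 with NT3 (SD, n = 3). The difference on the log2 scale was -0.015 ± 0.13 (SE), with an interval from 0.813-fold to 1.20-fold and an unadjusted limma p of 0.906.

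Frs2 encodes a membrane-anchored docking protein that competes with Shc1 for the same site on Trk receptors. Its stronger probe set gave 653, 790 and 669 in control and 653, 695 and 768 in NT3. Control replicate 2 and NT3 replicate 3 were the high arrays, so the groups overlapped over most of their range. The means were 704 ± 74.7 in control and 705 ± 58.4 in NT3, with a log2 fold change of 0.0051 ± 0.12 and an interval from 0.833-fold to 1.21-fold. A second Frs2 probe set had signals of 9.0 to 36.2 in control and 17.4 to 40.6 in NT3, which is under the signal filter of 41.3 that tested probe sets had to reach in their geometric mean. It was not tested.

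Grb2 encodes the adaptor that joins phosphorylated Shc1 and Frs2 to Sos1, through 1 SH2 domain flanked by SH3 domains. Its stronger probe set gave 662, 774 and 630 in control and 569, 627 and 558 in NT3. Every NT3 array lay below every control array, with NT3 replicate 2 and control replicate 3 nearly level. The means were 688 ± 75.7 and 585 ± 36.7, and the log2 fold change was -0.23 ± 0.12, or 0.851-fold with an interval from 0.709-fold to 1.02-fold. This was the lowest p among the 6 genes, at an unadjusted limma p of 0.0788 and an adjusted p of 1. In the fit blocked on replicate number the unadjusted limma p was 0.0442 and the adjusted p again 1, within a range of 0.986 to 1 over the alternatives. Without control replicate 2, which had the highest Grb2 signal, the log2 fold change was -0.14 ± 0.10 with an unadjusted limma p of 0.181.

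A second probe set of Grb2, of the kind whose name marks probes common to several transcripts of a gene, had no such separation. Its signals were 374, 305 and 378 in control and 378, 369 and 368 in NT3. Control replicate 2 was the lowest of the 6 arrays here, whereas it was the highest with the stronger probe set. The means were 352 ± 40.9 and 372 ± 5.29, and the log2 fold change was 0.084 ± 0.13. It was -0.017 ± 0.10 without control replicate 2. The third Grb2 probe set was under the filter and untested, with 22.0 to 69.2 in control and 30.5 to 40.8 in NT3.

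The ratio of the stronger to the second Grb2 signal was 1.77, 2.54 and 1.67 on control arrays 1, 2 and 3, and 1.51, 1.70 and 1.52 on the NT3 arrays. The probe sets of this 1 gene thus moved unequally on control replicate 2, where beta-actin also had its high 3′ to 5′ ratio. Apart from that array the ratios lay between 1.51 and 1.77, and NT3 replicate 2 lay between the other controls. The part of RNA quality in the Grb2 difference was not tested. A fit with the beta-actin ratio of each array as a covariate cannot separate RNA quality from treatment. Control replicate 2 stood far above the other arrays in that ratio, and the other controls lay below the NT3 arrays. In that fit, the log2 fold change of the stronger probe set was -0.18 ± 0.093 with an unadjusted limma p of 0.0879.

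**Figure D2:**
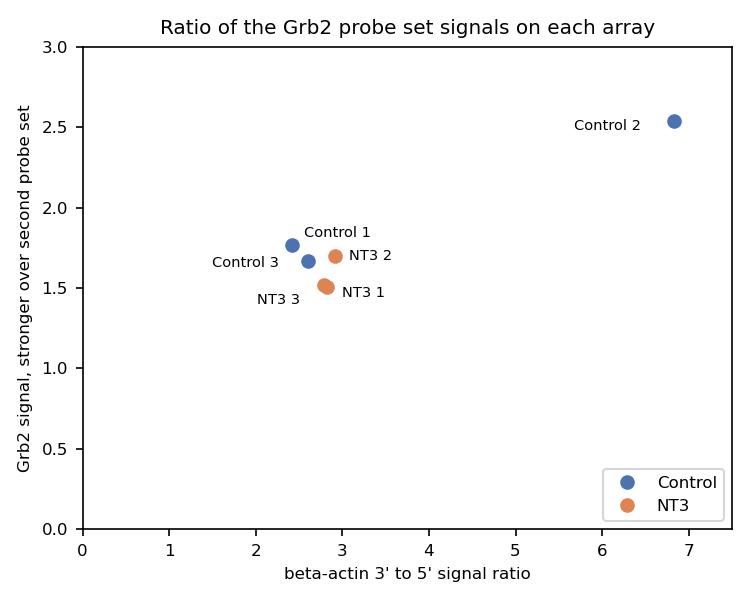
Ratio of the signal of the stronger to that of the second Grb2 probe set (y axis) against the beta-actin 3′ to 5′ signal ratio (x axis) on the 3 control (blue) and 3 NT3 (orange) arrays. Control replicate 2 lies alone at 2.54 and 6.83, and the other 5 arrays lie between 1.51 and 1.77.

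Gab1 encodes a docking protein that, once bound through Grb2, recruits the phosphatase encoded by Ptpn11 and phosphoinositide 3-kinase. Its probe set gave 669, 693 and 657 in control and 572, 594 and 656 in NT3. All NT3 arrays were below all control arrays, but NT3 replicate 3 and control replicate 3 were almost equal. The means were 673 ± 18.4 and 607 ± 43.4, with a log2 fold change of -0.15 ± 0.10, or 0.901-fold with an interval from 0.767-fold to 1.06-fold. The unadjusted limma p was 0.180 and the adjusted p 1. Control replicate 2 was again the highest array, and without it the log2 fold change was -0.13 ± 0.10.

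Grb2 and Gab1 were thus 2 of 6 genes whose groups did not overlap, both lower in NT3. Over all 18625 tested probe sets the groups did not overlap in 5.83%, and NT3 was the lower group in 3.21%. Between arrays of the same number, the log2 difference was -0.22, -0.30 and -0.17 for Grb2 and -0.23, -0.22 and -0.0022 for Gab1, so that pair 3 hardly differed for Gab1. The summed signal of the 5 leukocyte and macrophage markers, Cd68, Ctss, Tyrobp, Ptprc and Csf1r, also separated the groups, at 819 to 917 in control and 953 to 1075 in NT3, and none was at 0. By gene, Ctss and Ptprc were higher in NT3 with no overlap, and Cd68 and Tyrobp had higher NT3 means but overlapped. Csf1r overlapped as well, at 157 ± 30.8 in control and 152 ± 9.40 in NT3. The part of this sum in the member results was not tested.

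Sos1 encodes the exchange factor that Grb2 carries to Ras. Its stronger probe set gave 636, 592 and 468 in control and 611, 633 and 615 in NT3. The NT3 arrays were close together, and control replicate 3 was the low array. The means were 565 ± 87.0 and 619 ± 11.6, with a log2 fold change of 0.14 ± 0.13, an interval from 0.900-fold to 1.36-fold and an unadjusted limma p of 0.301. Without control replicate 3 the log2 fold change was 0.014 ± 0.12.

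The second Sos1 probe set varied far more. It gave 125, 72.4 and 79.4 in control and 68.9, 139 and 122 in NT3, with NT3 replicate 1 the lowest of all arrays. Its highest signal was 2.02 times its lowest, against 1.36 times for the stronger probe set. The log2 fold change was 0.23 ± 0.31, with an interval from 0.725-fold to 1.90-fold, so that this probe set leaves a wide range for the difference.

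Map2k1 encodes MEK1, 1 of the kinases that phosphorylate ERK. Its probe set gave 525, 399 and 505 in control and 513, 455 and 511 in NT3. Replicates 2 were the low arrays in both groups, and the groups overlapped. The means were 476 ± 67.9 and 493 ± 33.2, with a log2 fold change of 0.058 ± 0.13 and an interval from 0.843-fold to 1.29-fold. Without control replicate 2 the sign turned, to -0.065 ± 0.10.

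**Figure D3:**
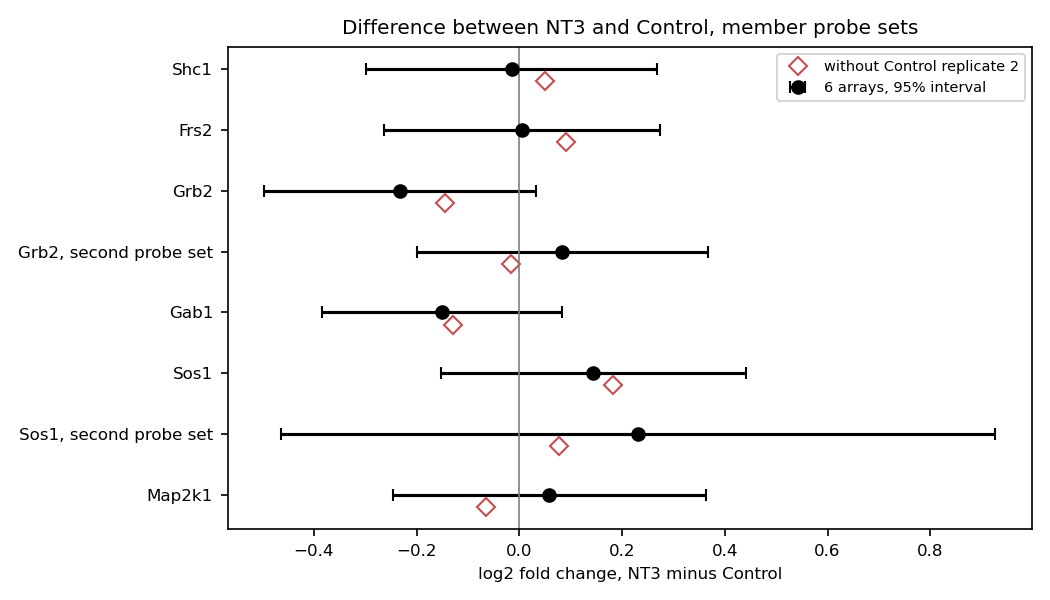
Log2 fold change, NT3 minus control, of the 8 tested probe sets (x axis) from limma on 6 arrays, with 95% intervals (black), and without control replicate 2 (open red diamonds). Every interval crosses 0, and the diamonds of Shc1, Map2k1 and the second Grb2 probe set lie on the other side of 0 from the value on 6 arrays.

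Control replicate 2 had the highest signal for Shc1, Frs2, Grb2 and Gab1 and the lowest for Map2k1. How often this array was an extreme over all genes was not counted. Without it, 3 genes were higher and 3 lower, as with all arrays, and the median log2 fold change was -0.0073. The genes on each side were not the same, since Shc1 went to 0.050 ± 0.12 and Map2k1 to -0.065. The within-group SD of the log2 signal had a median of 0.15 over the 6 genes, against 0.18 over all genes tested, and was smallest for Gab1 at 0.077. The 6 genes had high signals, and the SD of genes of like signal was not compared.

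The mean of the 6 genes' centred log2 signals was 0.011, 0.074 and -0.038 on control arrays 1, 2 and 3, and -0.071, 0.0018 and 0.022 on the NT3 arrays. Control replicate 2 was the highest and NT3 replicate 1 the lowest array. Of 10500 genes outside the lists used here, B3gntl1, Tbl3 and Zfp318 had the log2 signals most like this mean, with Pearson correlations of 0.981, 0.980 and 0.977 and a Spearman correlation of 0.943 each. These values are over 6 arrays and were the highest of many. With each array centred on its median, the Pearson correlations were 0.870, 0.977 and 0.928. The part of RNA quality in this pattern was not tested.

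A further list of 49 genes held other adaptors, GTPases, kinases and regulators of Trk to ERK signalling. Of these, 42 had a single-symbol probe set and 33 passed the filter. None had an adjusted limma p under 0.05, against 0% of all probe sets, and none an unadjusted limma p under 0.05. The log2 fold change was above 0 for 18 genes and below 0 for 15, with a median of 0.018, against -0.0075 over all genes tested. Without control replicate 2, 14 were higher and 19 lower, the median was -0.030, and Rps6ka2 was the 1 gene at an unadjusted limma p under 0.05, where the share of all probe sets was 3.52%. In the fit blocked on replicate number that count was also 1, Shc2, against 2.15%. Unadjusted values under 0.05 also occurred in other fits. In most of these fits the unadjusted p was looked up for only some of the 33 genes. Araf had a limma p of 0.042 without control replicate 1, where 313 of 18625 probe sets were under 0.05. Rps6ka2 had 0.0431 with array weights (585 probe sets) and 0.0364 with the beta-actin covariate (473). Shc2 had 0.014 with both arrays numbered 2 left out and the block (958). None was under 0.05 after adjustment.

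**Figure D4:**
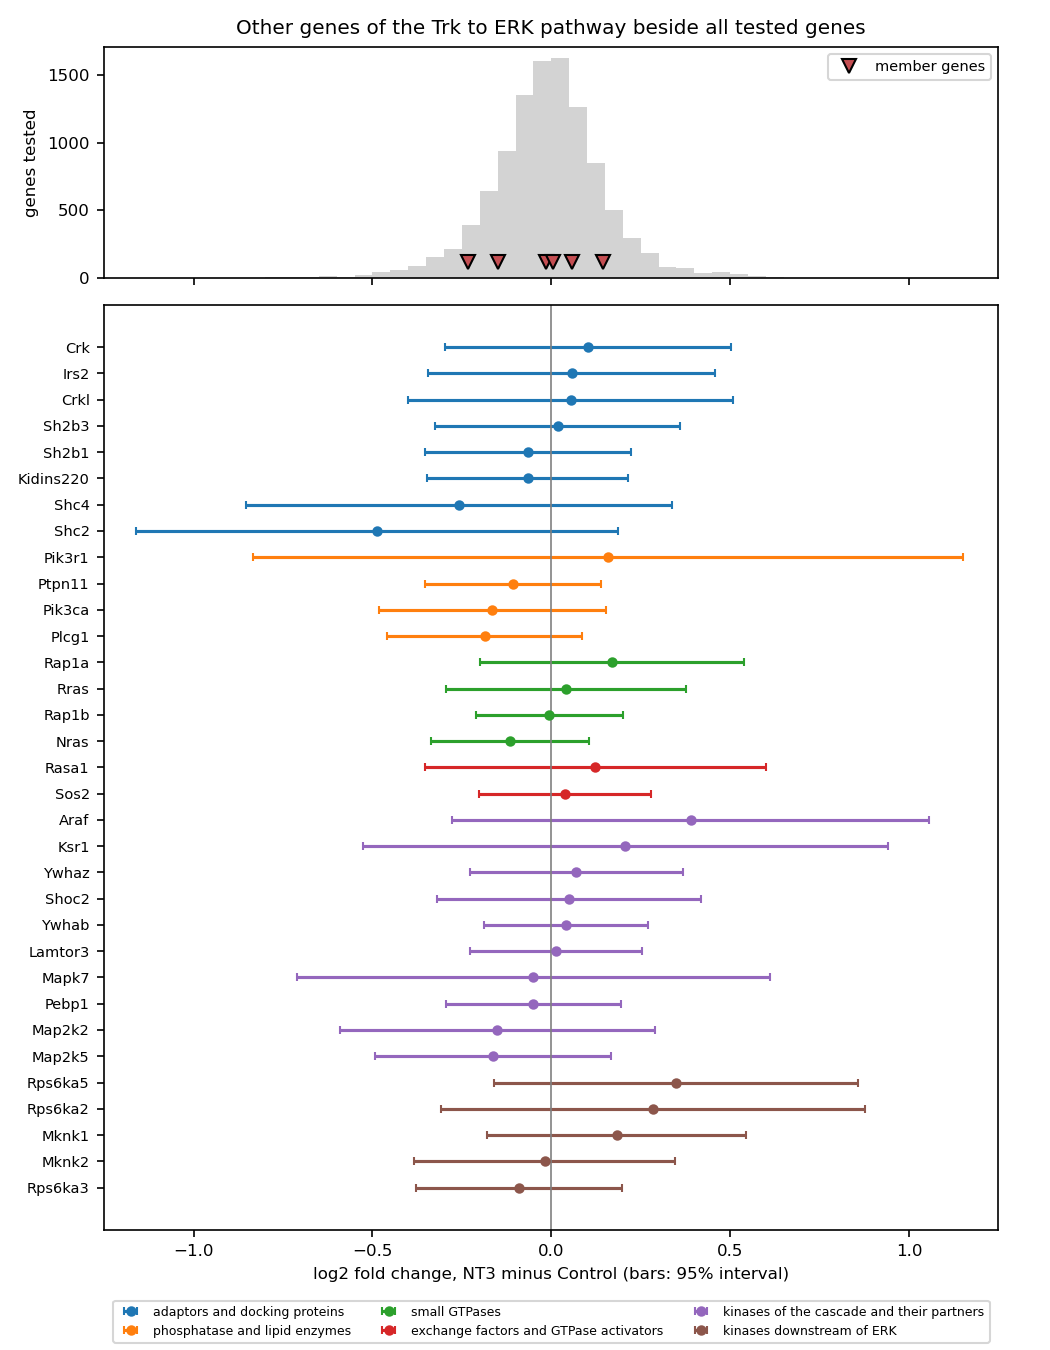
Top, histogram of the log2 fold change (x axis, NT3 minus control) of all 10600 tested genes, with the 6 member genes as triangles. Bottom, the 33 other tested pathway genes by role, with 95% intervals from limma. All 33 intervals cross 0, and the points run from -0.49 for Shc2 to 0.39 for Araf.

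Among the adaptors and docking proteins of that list, 4 of 8 tested genes had a higher and 4 a lower log2 signal in NT3. Shc2, a relative of Shc1 best known from neurons, had 122 ± 27.0 in control and 89.2 ± 30.3 in NT3, and the groups overlapped. Its log2 fold change of -0.49 ± 0.30 was the lowest on the list, with an unadjusted limma p of 0.137, or 0.0269 in the blocked fit (adjusted p 1 in both). It was -0.17 without NT3 replicate 3, the lowest array, and from -0.38 to -0.69 with each other array left out. Shc4, another relative, had -0.26 ± 0.26 at signals of 31.7 to 51.7 near the filter, and from -0.45 without NT3 replicate 2 to -0.11 without NT3 replicate 3. Shc3, Frs3 and Gab2, the other near relatives of the adaptors, were under the filter, at signals of 2.0 to 4.7, 25.7 to 35.7 and 1.9 to 38.3 over the 6 arrays.

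Of the enzymes that dock on the receptor or on Gab1, 1 of 4 was higher and 3 were lower in NT3, none past the test. Plcg1, which encodes phospholipase C gamma 1, had 547 ± 67.4 in control and 478 ± 17.4 in NT3, with a log2 fold change of -0.19 ± 0.12. Pik3ca, the gene of a catalytic subunit of phosphoinositide 3-kinase, had -0.17 ± 0.14 on its strongest probe set. Its 5 other tested probe sets had -0.048, -0.0066, 0.021, -0.033 and 0.23, and the mean of all 6 gave -0.00095. Control replicate 2 was the highest array for Plcg1 and for the strongest Pik3ca probe set, and without it the values were -0.092 ± 0.10 and -0.030 ± 0.11.

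Of the small GTPase genes, 2 of 4 were higher and 2 lower in NT3. Nras, which encodes a Ras protein close to that of Hras, had 1018, 944 and 929 in control and 842, 927 and 899 in NT3. Every NT3 array lay below every control array, though control replicate 3 and NT3 replicate 2 were nearly equal. Nras was the 1 gene of the 33 whose groups did not overlap on its strongest probe set. Over all genes tested this held for 605 of 10600, and over all tested probe sets for 5.83%. Its log2 fold change was -0.12 ± 0.097 with an unadjusted limma p of 0.264. The second Nras probe set had -0.071 ± 0.21 and overlapping groups. Rap1a had 0.17 ± 0.16 with overlapping groups on its strongest probe set. Its second, weaker probe set gave 149.6, 120.9 and 139.7 in control and 116.9, 97.2 and 111.5 in NT3, with no overlap. There the log2 fold change was -0.33 ± 0.17, with an unadjusted limma p of 0.078. Sos2, the close relative of Sos1, had 570 ± 35.7 and 585 ± 31.7, with a log2 fold change of 0.039 ± 0.11.

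The kinases of the cascade and their partners numbered 10 tested genes, 6 higher and 4 lower in NT3. Map2k2, which encodes MEK2, had 528, 896 and 541 in control and 614, 541 and 564 in NT3. Control replicate 2 stood far above the rest, and the log2 fold change was -0.15 ± 0.19 with it and 0.098 ± 0.10 without it. Araf, a Raf kinase gene that links Ras to MEK, had 224, 103 and 157 in control and 254, 214 and 149 in NT3. Its log2 fold change was 0.39 ± 0.29, from 0.10 without control replicate 2 to 0.66 without control replicate 1, and its other probe set had -0.11 ± 0.14. Ksr1, which encodes a scaffold for Raf, MEK and ERK, had 0.21 ± 0.32 on 1 probe set, or -0.088 without control replicate 1, and -0.39 ± 0.28 on the other.

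Of 5 tested kinases downstream of ERK, 3 were higher and 2 lower. Rps6ka5, the gene of the kinase MSK1, had 74.9 ± 7.71 in control and 97.1 ± 24.8 in NT3, with overlapping groups, and a log2 fold change of 0.35 ± 0.22, which was 0.16 without NT3 replicate 2, its highest array. Its other probe set had 0.0059 ± 0.20. Rps6ka2, which encodes a ribosomal S6 kinase, had 58.0, 97.3 and 51.8 in control and 72.6, 88.5 and 82.1 in NT3. Control replicate 2 was its highest array, and the log2 fold change was 0.28 ± 0.26 with that array and 0.56 ± 0.20 without it, where its unadjusted limma p was 0.0217 and the adjusted p 0.999, within a range of 0.980 to 1 over the alternatives.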

How the data were processed

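RNA of 6 samples was measured on 1-colour Affymetrix arrays. The values the authors deposited are linear intensity signals, 1 for each probe set on each array, made with MAS5 per the submitters' processing notes, with no version stated there. Each array had the same mean of 210.1 once 2% of values were trimmed from either end, so the signals were already scaled.

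The 57 control probe sets were left out, values of 0 were set to 0.1, and log2 was taken. Probe sets with a mean log2 signal under the 40th percentile, 5.37, were left out, which kept 18625. Groups were compared with limma 3.58.1 in R 4.3.3 (lmFit, eBayes with an intensity trend, 2-sided, Benjamini-Hochberg at 0.05), tested on simulated data. Each gene was represented by its single-symbol probe set of highest mean signal, named from the array annotation. Of 20826 such probe sets, the Entrez identifiers of 20758 were found in RefSeq's GRCr8 table, with 0 changed symbols.

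The members, the pathway list and the marker lists were chosen with earlier results of these data known. The rule named every member, its near relatives, the Raf kinases, the 3 highest and 3 lowest other pathway genes, and the 3 genes most like the members' mean.

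Same-numbered arrays deviated jointly from their group means (correlations of 0.230, 0.247 and 0.222), which is evidence from the data and not from the labels. The numbers were taken to pair the samples, but the fit without the block was kept as designed, so its errors ignore that pairing. Over all tested probe sets the median SE was 0.176 without the block and 0.154 with it. Alternatives were the block, scaling, filters, an offset, the variance model, array weights, the beta-actin ratio as a covariate and arrays left out.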

Additional observations from a re-analysis of the deposited data

How the results depend on the processing

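No member gene and no gene of the pathway list had an adjusted limma p under 0.05 in any of the 18 alternative fits, nor had a member probe set in the 17 fits made on probe sets. The median log2 fold change of the 6 member genes lay between -0.080 and 0.043. Over all probe sets the number called was 0, except 6 with both arrays numbered 2 left out and the replicate block, a fit that rests on 2 pairs, none of which stood for a member or pathway gene, and it was 240 when an unadjusted p was used. That unadjusted count was 401 with the replicate block, 656 without control replicate 2 and 176 to 656 over single arrays left out. On all 6 arrays the replicate block changed no adjusted call. The stronger Grb2 and Sos1 probe sets and Gab1 kept their direction in those 17, and with the mean of all probe sets Grb2 was -0.061 and Sos1 0.19. Frs2 was 0.24 ± 0.23 with that mean, which includes its probe set under the filter, against 0.0051 ± 0.12 in the main fit. Directions turned for the values below, among them Map2k2, Ksr1, Pik3ca and the second Sos1 probe set, which on 6 arrays were as far from 0 as Gab1. The cause was not tested. Over single arrays left out, the log2 fold change ranged from -0.11 to 0.057 for Shc1, -0.058 to 0.091 for Frs2, -0.065 to 0.13 for Map2k1, -0.017 to 0.14 for the second Grb2 probe set, -0.012 to 0.077 for Sos2, -0.28 to 0.098 for Map2k2 and -0.088 to 0.50 for Ksr1. With array weights it was 0.014 for Shc1, -0.028 for Map2k1, -0.014 for Sos2, 0.057 for Map2k2 and -0.015 for the second Sos1 probe set. With the beta-actin ratio as a covariate it was 0.030 for Shc1, -0.020 for Map2k1 and 0.0043 for Map2k2. With both arrays numbered 2 left out, with or without the replicate block, it was -0.0075 for Map2k1, 0.14 for Map2k2, 0.023 for Pik3ca, -0.011 for the second Grb2 probe set and -0.12 for the second Sos1 probe set. It was -0.0011 for Frs2 with quantile normalization and -0.089 for Ksr1 with the mean of its probe sets. The median log2 fold change of all tested probe sets moved by under 0.1 in every setting, and detection calls were not used here, so the signal filter stands in for signal over background.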

Other observations

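Of the 16 pathway probe sets under the signal filter, 5 had groups that did not overlap, 4 lower and 1 higher in NT3, against 9.16% of all 12417 probe sets under the filter. They were singled out after their values were seen. Rasgrf1, which encodes an exchange factor for Ras known from neurons, had 38.6, 55.4 and 46.8 in control and 5.6, 16.7 and 1.0 in NT3 on 1 probe set. Its other probe set had 2.7 to 5.1 in control and 3.2 to 6.4 in NT3, with no separation. Gab2 had 23.6, 19.6 and 1.9 in control and 26.4, 38.3 and 33.8 in NT3. The other 3 probe sets, all lower in NT3, belonged to Rasgrp1, Shc2 and Crkl, at mean signals of 22.1, 6.2 and 23.1 in control. In the fit with no filter, 1 of the 16 had an unadjusted limma p under 0.05 and none an adjusted one, against 4.20% of all probe sets under the filter, and no size of change is given for signals this low.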
